A study of Mus musculus with 13 samples.

Results

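The editing sites described here lie outside every gene annotated on their strand. They come from a list of known adenosine-to-inosine sites at which the authors counted bases in RNA of whole mouse brain. A site was kept if it was listed in all 3 deposited comparisons with wild type, had a reference A on the transcribed strand, lay in no GENCODE M21 gene on that strand (mouse build mm10) and outside a ribosomal RNA interval of chromosome 17, and was covered by 10 or more A or G reads in every one of the 13 libraries. Of 10608 sites with that depth, 608 met the rule. Of the 608, 98 were antisense to a gene, meaning that a gene covers the position on the other strand only, and 510 were intergenic, with no gene on either strand. Another 1809 listed sites outside genes had under 10 reads in some library and were not used. The values just below and at that limit were alike: 97 sites whose poorest library had 9 reads had a median pooled level of 13.6%, and the 59 sites whose poorest library had 10 reads had 12.6%. A stricter minimum of 20 reads gave lower antisense means, listed in the last section. No value for sites within genes is given at that minimum. The editing level is the share of G among A plus G reads.

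The brains came from 13 C57BL/6 mice, 42 to 74 days old and of both sexes, and fell into 4 genotypes at Adar, which encodes ADAR1. They were WT (n = 3), P195A/+ with 1 mutant allele beside the normal one (n = 3), P195A/P195A with the P195A allele on both chromosomes (n = 4), and P195A/- with P195A opposite a knockout allele (n = 3). Age differed with genotype: WT mice were 48, 48 and 74 days old, P195A/+ mice 43, P195A/P195A mice 42 or 48 and P195A/- mice 42. P195A/P195A replicates 3 and 4 shared age and weaning age (48 and 19 days) with WT replicates 1 and 2. Replicates 1 and 2 shared theirs (42 and 20 days) with all P195A/- mice. Weaning weights were 9.0 to 10.5 g in WT, 9.0 to 10.7 g with P195A/+, 6.4 to 8.4 g with P195A/P195A and 7.9 to 8.4 g with P195A/-. A part of age, weight or such grouping in the differences between genotypes was not tested. A longer label of the P195A/- animals lists P195A for both chromosomes together with AdarKO/+, which was not resolved, and the short genotype label was followed here. Each library is 1 animal, so errors below are the SD between animals. In RNA of a whole brain, fewer cells of a type and less RNA per cell cannot be told apart.

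ADAR1 and its relative ADAR2 (encoded by Adarb1) bind double-stranded RNA and deaminate adenosine to inosine, which is copied as guanosine, so that an edited site shows G reads where the genome has A. Most substrates are long hairpins made when copies of a repeat, such as the mouse B1 and B2 elements, lie in opposite orientation in the same transcript, often in introns and 3′ untranslated regions. Such hairpins are edited at many adenosines at once. P195A lies in the domain of the long ADAR1 isoform that binds Z-form nucleic acids, and the mouse allele models a human disease variant.

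The reference sequence was at hand for 21 of the 608 sites, those opposite an exon or in a promoter window, and a few windows are shown because they display how such sites are arranged. Sequences are mm10, written 5′ to 3′ on the strand of the edited RNA and taken from the GENCODE M21 transcripts. A capital A marks each of the 608 sites kept here. Any listed site of lower depth within a window is left in lower case. The first and second windows are antisense to exons of Ube3a, the ubiquitin ligase gene that neurons express from the maternal chromosome and whose paternal copy is silenced by a long antisense transcript. They lie at chr7:59281051-59281174 and chr7:59282415-59282508, both on the minus strand and both inside the RefSeq gene Snhg14, the source of that antisense transcript. The third, at chr9:95557358-95557470 on the minus strand, is antisense to the non-coding gene Gm32281. The fourth is the 29-base surroundings of the site at chr7:27528168, on the minus strand opposite an untranslated region (UTR) of Hipk4. This site changed most clearly between genotypes.
Ube3a antisense, 4 sites: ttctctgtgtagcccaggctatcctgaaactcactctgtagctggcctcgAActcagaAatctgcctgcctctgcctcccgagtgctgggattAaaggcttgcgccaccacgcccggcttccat
Ube3a antisense, 7 sites: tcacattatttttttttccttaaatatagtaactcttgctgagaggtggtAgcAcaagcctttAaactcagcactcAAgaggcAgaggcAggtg
Gm32281 antisense, 3 sites: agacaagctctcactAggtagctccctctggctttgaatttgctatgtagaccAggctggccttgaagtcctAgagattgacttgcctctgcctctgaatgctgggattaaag
Hipk4 antisense, 1 site: ctcttgtaccttctAcacttcctttctta

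The Ube3a windows face each other: the first aligned to the reverse complement of the second over 47 columns with 41 identical bases, 6 mismatches and 0 gaps (87.23%), against 18 identical of 25 columns in the same orientation. The inner edited sites of the pair lie 1295 bases apart. Pairing of the RNA was not measured. The Gm32281 window resembled the first Ube3a window in the same orientation, with 49 of 60 columns identical. The base before the edited A was g at 1 of the 21 sites, t at 11, c at 5 and a at 4. The base after it was g at 9, a at 8, c at 3 and t at 1. A depletion of G before the site and a preference for G after it are the known neighbour preferences of ADAR enzymes. Of the 21 sites, 11 share the Ube3a locus, so these counts are not of independent sites.

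Most intergenic sites lay just beyond an annotated gene on the same strand. The nearest gene on the strand ended before the site for 439 of 510 (86.1%), 125 sites lay within 1 kb after that end and 368 (72.2%) within 10 kb, and the median distance to the nearest gene was 2845.5 bp. The nearest gene was protein-coding for 396 of 510 sites. RefSeq, with longer gene ends at some of these places, put 359 of the 510 (70.4%) inside a gene interval on either strand, 230 of them (45.1%) in the gene of the same symbol as the nearest GENCODE gene. At the other extreme, 48 sites were over 50 kb from any gene on their strand. The 98 antisense sites were opposite introns only at 78 positions and opposite an exon at 20, and 68 of them also lay within 10 kb after the end of a gene on their own strand. A listed site on the other strand lay within 1 kb of 2 of the 98 antisense and 4 of the 510 intergenic sites.

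**Figure D1:**
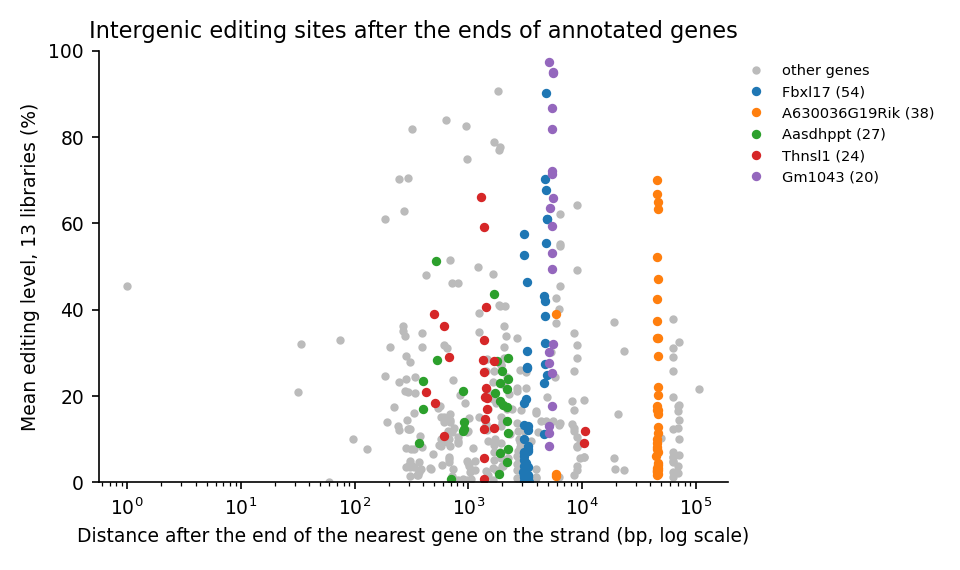
Mean editing level over 13 libraries (%, vertical axis) of the 439 intergenic sites that follow the end of the nearest gene on their strand, against the distance from that end in base pairs (log scale). Colours mark the genes with 20 or more such sites, and the sites of a gene stand in narrow columns that span from near 0% to over 60% at Fbxl17, A630036G19Rik and Thnsl1.

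The sites were clustered. Joined by gaps of at most 100 bases, 416 of the 484 tested intergenic sites (86.0%) and 75 of the 94 tested antisense sites stood in clusters of 2 or more, close to the 84.6% of tested sites within genes. Grouped by neighbouring gene, the 608 sites made 119 loci, and the 17 loci with 10 or more sites held 344 of them. Sites of a locus share reads and transcripts and are not independent. Levels did not fall steadily with distance: the median was 12.4% within 1 kb after a gene end (125 sites), 13.8% from 1 to 5 kb (188 sites), 28.8% from 5 to 10 kb (55 sites, 20 of them at Gm1043) and 11.99% beyond 10 kb (71 sites).

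C or T reads, a measure of sequencing error, were 0.0428% of reads at antisense and 0.0111% at intergenic sites. Some listed sites showed little or no editing: 30 of the 608 had a pooled level under 1%, and the single sites after Bnip3 (913 reads) and after Gpr89 (230 reads) were at 0.0% in every library. Over the 13 libraries the median level was 13.8% at antisense sites and 13.4% at intergenic sites, beside 9.24% at the 10000 sites within genes. A mean level over 50% was reached at 11 of 98 antisense sites (11.2%), 47 of 510 intergenic sites (9.22%) and 5.02% of sites within genes. Median depth summed over the libraries was 311.5, 397.5 and 368 reads for these classes. These are descriptions, since the classes hold different transcripts and were not tested against each other.

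Gene libraries held 13539583 to 22399172 estimated counts, and the sites outside genes held 17174 to 25005 A plus G reads per library, a median of 24 to 36 per site. Markers of neurons averaged 108 to 1278 CPM (counts scaled to equal library totals), those of astrocytes, oligodendrocytes, microglia and endothelium were all present, and 3 genes of other tissues did not exceed 0.491 CPM in any library. Adar itself was at 187, 165 and 189 CPM in WT, 242, 245 and 232 with P195A/+, 346, 282, 340 and 322 with P195A/P195A and 196, 204 and 204 with P195A/-. All P195A/P195A values lay above all others. By edgeR's quasi-likelihood test Adar was higher in P195A/P195A than in WT by 0.84 on the log2 scale (SE 0.0775, adjusted p = 5.91e-05) and lower in P195A/- than in P195A/P195A (-0.68 on that scale, SE 0.0772, adjusted p = 0.000773).

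The mean level outside genes differed little between the genotypes. Antisense sites averaged 22.0%, 22.8% and 21.2% in the WT libraries, 23.4%, 22.6% and 24.2% with P195A/+, 23.7%, 25.1%, 21.9% and 23.8% with P195A/P195A, and 21.8%, 21.2% and 21.8% with P195A/-. The WT values overlapped with those of each other genotype. Intergenic sites averaged 19.7%, 18.6% and 19.9% in WT, 20.3%, 20.1% and 21.4% with P195A/+, 20.5%, 19.9%, 21.0% and 20.8% with P195A/P195A, and 18.3%, 18.6% and 20.5% with P195A/-. There, all P195A/+ and P195A/P195A libraries lay above all WT libraries, narrowly (19.94% in the lowest P195A/P195A and 19.89% in the highest WT library), and the P195A/- libraries overlapped with every group. The same separation from WT was seen at the 10000 sites within genes. Their highest WT library was at 14.69%, the lowest P195A/P195A library at 14.88% and the lowest P195A/+ library at 15.27%.

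As group means, antisense sites were at 22.0% ± 0.848 (SD, n = 3) in WT, 23.4% ± 0.780 (n = 3) with P195A/+, 23.6% ± 1.32 (n = 4) with P195A/P195A and 21.6% ± 0.324 (n = 3) with P195A/-. Intergenic sites were at 19.4% ± 0.711, 20.6% ± 0.702, 20.5% ± 0.447 and 19.1% ± 1.22 in the same order. Sites within genes were at 14.02% ± 0.600, 15.6% ± 0.325, 15.1% ± 0.232 and 14.5% ± 0.426. The order P195A/+ and P195A/P195A above WT held in all 3 classes, and the P195A/- mean was below WT in both classes outside genes and above it within genes, in each case by less than 1 SD of the WT libraries. At the 12 antisense sites that also lie outside every RefSeq gene, a subset chosen after seeing the data, the order turned round, with 16.0%, 13.96%, 13.4% and 16.0% from WT to P195A/-. No test was made of these means, because the members were chosen with results known.

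**Figure D2:**
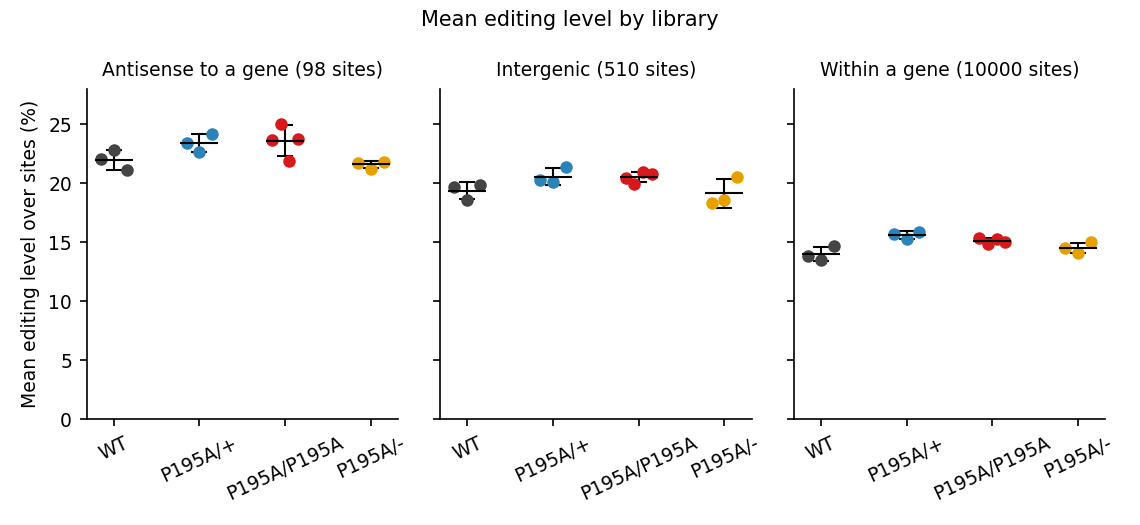
Mean editing level (%) of each library over the 98 antisense sites, the 510 intergenic sites and the 10000 sites within genes, by genotype. Points are libraries, the horizontal line is the group mean and the bar 1 SD (n = 3, 3, 4 and 3); all groups outside genes lie between 18.3% and 25.1%, above the sites within genes.

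Site by site, the levels of the genotypes ran together. Across the 98 antisense sites the group means of P195A/+, P195A/P195A and P195A/- correlated with those of WT at Pearson r = 0.961, 0.968 and 0.949, and across the 510 intergenic sites at 0.946, 0.939 and 0.955. These are correlations across sites of the same libraries, and neighbouring sites share reads. A mean level over 10 percentage points above WT was seen at 8 of 98 antisense and 43 of 510 intergenic sites with P195A/+. It was seen at 9 and 51 with P195A/P195A and at 4 and 20 with P195A/-. Over the whole series of 10608 sites, inside and outside genes, the shares were 9.55%, 8.07% and 6.0% in the same order. A level over 10 points below WT was seen at 3 antisense and 26 intergenic sites in P195A/+ mice, at 1 and 23 in P195A/P195A mice and at 8 and 26 in P195A/- mice. The shares over the whole series were 3.11%, 3.33% and 3.82%.

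The largest locus was the stretch that starts 3057 bp and ends 4922 bp after the GENCODE end of Fbxl17, an F-box protein of an SCF ubiquitin ligase, at chr17:63052530-63054395 on the minus strand. It held 54 sites within 1866 bases, all inside the longer Fbxl17 of RefSeq, with site levels from 0.113% to 90.1%. Of the 54, 8 were over 50% and 21 under 5%, so heavily and hardly edited adenosines stood side by side. The mean over its sites was 18.8% ± 0.773 in WT, 21.4% ± 1.81 with P195A/+, 19.9% ± 0.505 with P195A/P195A and 17.8% ± 1.19 with P195A/-, and the WT libraries overlapped with each other genotype. Its most edited site, chr17:63052618, was at 84.6%, 95.8% and 85.5% in WT, 94.4%, 93.8% and 90.1% with P195A/+, 93.6%, 97.1%, 91.7% and 89.3% with P195A/P195A and 84.8%, 82.8% and 88.2% with P195A/-. The WT libraries overlapped with each other genotype.

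**Figure D3:**
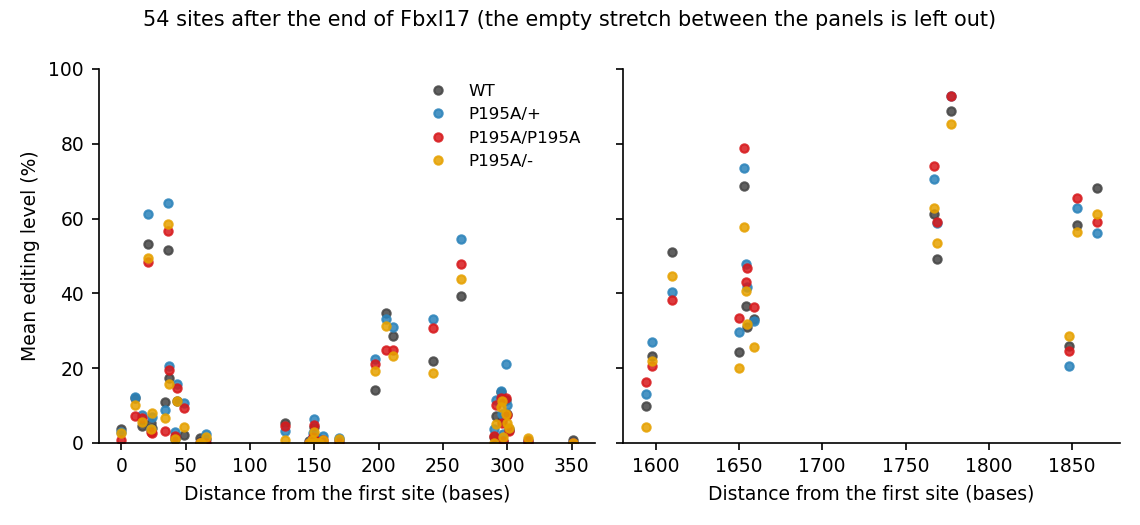
Mean editing level (%) in each genotype at the 54 sites after the end of Fbxl17, against the distance in bases from the first site along the strand, with the empty stretch between the panels left out. Points are group means (n = 3, 3, 4 and 3); the genotypes follow the same pattern of high and low sites, and 8 sites average over 50%.

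The next largest loci lay in a row on chromosome 16, minus strand, inside RefSeq Robo2, an axon guidance receptor whose GENCODE M21 interval does not reach them. The 39 sites nearest to A630036G19Rik (chr16:74984019-75072789) averaged 19.4% ± 1.20 in WT, 21.0% ± 0.894 with P195A/+, 22.7% ± 2.08 with P195A/P195A and 21.9% ± 3.63 with P195A/-. The 30 sites nearest to Gm49674 (chr16:74801898-74939103) averaged 11.4% ± 2.75, 13.2% ± 2.02, 12.96% ± 1.06 and 11.1% ± 0.682. At the first locus all P195A/P195A libraries lay above all WT libraries, and at the second WT overlapped with each other genotype. Beyond the end of Aasdhppt, a phosphopantetheinyl transferase, 27 sites averaged 18.8%, and beyond Thnsl1, a threonine synthase-like protein, 24 sites averaged 24.2%.

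Some loci were edited far more than others. The 20 sites after Gm1043 (chr5:37234646-37235085, plus strand) averaged 52.9%, and 11 of them were over 50%. There, chr5:37234699 was the most edited intergenic site, at 89.7%, 100% and 91.8% in WT, 100%, 100% and 96.3% with P195A/+, 100%, 97.6%, 100% and 100% with P195A/P195A and 96.8%, 95.3% and 100% with P195A/-. The locus mean was 54.6% ± 1.14, 52.1% ± 5.54, 52.8% ± 1.78 and 52.1% ± 5.18 from WT to P195A/-, and the groups overlapped. The 7 sites after Klhl7, an adaptor of a cullin ubiquitin ligase, averaged 44.4%, and the 6 after Dcun1d5, which promotes cullin neddylation, 40.9%. At the low end, the 17 sites after Slc35e1, a solute carrier, averaged 11.1%, with 11 of them under 5%, and the 7 after Ipp 7.15%.

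At other loci with 10 or more sites the nearest gene was brain-expressed. These genes were Slitrk1 (14 sites, mean 14.98%), a neuronal transmembrane protein, and Gabbr1 (11 sites, 16.7%), a subunit of the GABA-B receptor. The Slitrk1 sites lay far off, 63028 to 107860 bp after the gene end, and those of Gabbr1 684 to 1712 bp after it. Further loci of this size followed genes of general functions: Dyrk1b, a protein kinase (16 sites, 21.1%), Brf1, a factor of RNA polymerase III (13 sites, 30.6%), and Cdk7, the kinase of TFIIH (12 sites, 19.9%). The Brf1 site chr12:112958242 was at 90.6% over the 13 libraries. The sites with the most reads were not the most edited: chr7:3418781, after the AMPA receptor auxiliary subunit gene Cacng8, had 1729 reads and a mean level of 4.85%, and chr11:97845741, after B230217C12Rik, had 1202 reads and 0.583%.

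Among the antisense sites, those with the highest levels lay on chromosome 5 opposite Gm20635 and Gm42504, on the plus strand before Gm43398. The 12 sites at chr5:143394581-143395379 averaged 48.6% ± 2.39 in WT, 49.5% ± 1.35 with P195A/+, 50.6% ± 0.666 with P195A/P195A and 49.3% ± 2.16 with P195A/-, with overlap. The highest, chr5:143394581, was at 98.5% over the 13 libraries and at or above 94.0% in each. The 6 sites opposite Ccdc73 after Eif3m, a translation initiation factor subunit, averaged 39.3%. Their highest, chr2:104996928, was at 68.0%, 73.9% and 76.2% in WT, 91.3%, 83.3% and 100% with P195A/+, 88.5%, 100%, 80.0% and 95% with P195A/P195A and 83.3%, 90.5% and 86.4% with P195A/-. All WT libraries lay below all others at this site, which did not pass (P195A/P195A against WT: log2 odds ratio 1.68, adjusted p = 0.508 by edgeR's quasi-likelihood test).

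The 11 sites antisense to Ube3a are those of the first windows shown above. In the window of 7 sites the levels, in the order of the capitals, were 19.6%, 9.85%, 7.42%, 36.9%, 36.2%, 17.9% and 13.4%, and in the window of 4 sites 19.3%, 72.7%, 30.5% and 8.93%. Neighbouring adenosines could thus differ greatly: chr7:59281123 was at 72.7% and chr7:59281124, the base before it, at 19.3%. The mean over the 11 sites was 25.2%, 24.9% and 17.95% in the WT libraries, 27.8%, 23.9% and 29.1% with P195A/+, 26.0%, 28.9%, 24.6% and 27.96% with P195A/P195A and 23.3%, 23.0% and 19.8% with P195A/-. The P195A/- libraries lay below all P195A/P195A and P195A/+ libraries and within the range of WT. The cluster of 7 sites passed in none of the 4 comparisons, with log2 odds ratios of 0.42, 0.30, 0.20 and -0.10 and adjusted p of 0.714, 0.798, 0.985 and 0.953 by edgeR's quasi-likelihood test (P195A/+, P195A/P195A and P195A/- against WT, and P195A/- against P195A/P195A). Over the cluster of 4 sites (chr7:59281081-59281124) P195A/- was at 21.5%, 27.5% and 20.8% and P195A/P195A at 35.1%, 36.3%, 40.2% and 30.4%, without overlap, which did not pass (log2 odds ratio -0.87, SE 0.353, adjusted p = 0.480 by edgeR's quasi-likelihood test). Against WT its log2 odds ratios were 0.15, 0.49 and -0.38 for P195A/+, P195A/P195A and P195A/- (adjusted p of 0.923, 0.719 and 0.964). Ube3a mRNA was between 370 and 401 CPM in the group means.

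Genotypes were compared by edgeR's quasi-likelihood test of edited against unedited reads, in 1 fit over the 9717 sites of the series with a pooled level of 1 to 99%, adjusted over all of them. The effect is a log2 odds ratio, the log2 of the ratio of the odds of a G read in the first genotype to those in the second. Of the 608 members 578 were tested, 94 antisense and 484 intergenic, and the other 30 had a pooled level under 1%. The 3 comparisons with WT share the WT libraries, so their results are not independent. For clusters, the reads of all sites were summed. A read that spans several sites is counted once per site, so the depth of clusters is overstated.

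P195A/P195A against WT gave the only calls outside genes. Of 578 sites 2 passed, both higher in P195A/P195A, beside 22 of 9717 sites in all (0.226%), all 22 of them higher. The first is chr7:27528168, shown above, opposite a UTR of Hipk4, a protein kinase gene, and 3832 bp after the end of Pld3, a lysosomal exonuclease gene, on the strand of Pld3. It had the most reads of the antisense sites, 1692 in all and 84 to 169 per library. Its level was 8.45%, 17.4% and 10.8% in WT, 21.6%, 21.9% and 27.4% with P195A/+, 37.3%, 26.7%, 33.3% and 25.2% with P195A/P195A and 15.3%, 16.9% and 13.1% with P195A/-. All P195A/+ and P195A/P195A libraries lay above all WT and P195A/- libraries, and the last 2 groups overlapped. The counting error (95% Wilson interval) was 12.3 to 24.0% for the highest WT library and 18.4 to 33.5% for the lowest P195A/P195A library, so single libraries overlap within counting error while the groups do not overlap.

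The group means at this site were 12.2% ± 4.63 (n = 3), 23.6% ± 3.29 (n = 3), 30.6% ± 5.66 (n = 4) and 15.1% ± 1.92 (n = 3). The log2 odds ratio of P195A/P195A against WT was 1.67 (SE 0.330, adjusted p = 0.00107 by edgeR's quasi-likelihood test). It was 1.15 (SE 0.347, adjusted p = 0.446) for P195A/+ against WT and -1.29 (SE 0.342, adjusted p = 0.0931) for P195A/- against P195A/P195A, neither of which passed. Group means of the site and of Adar mRNA had the same order (WT, P195A/-, P195A/+, P195A/P195A), and a part of Adar level in the result was not tested. Pld3 was at 139, 140, 142 and 161 CPM and Hipk4 at 2.22, 2.13, 1.62 and 1.81 CPM from WT to P195A/-, and neither passed the gene test. The sites chr7:27527160 and chr7:27527161, next to each other and also opposite Hipk4, lay farther off, 4840 and 4839 bp after the end of Pld3. They had another order: the latter was at 14.9% ± 2.16, 10.4% ± 2.71, 10.8% ± 2.39 and 12.5% ± 5.44. Over all 4 sites of the locus, chr7:27528168 among them, the means were 13.98% ± 4.52, 12.6% ± 2.21, 16.8% ± 2.25 and 12.4% ± 2.66.

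The second passing site is chr10:78186086, minus strand, 639 bp after the end of Trappc10, a subunit of the TRAPP complex of vesicle traffic, inside RefSeq Trappc10. Its level was 76.9%, 66.2% and 66.0% in WT, 90.6%, 77.6% and 94.2% with P195A/+, 88.0%, 100%, 87.5% and 90% with P195A/P195A and 78.6%, 81.8% and 95% with P195A/-, from 20 to 71 reads per library. All WT libraries lay below all others, and the other groups overlapped. The log2 odds ratio of P195A/P195A against WT was 2.20 (SE 0.562, adjusted p = 0.0385 by edgeR's quasi-likelihood test), and that of P195A/+ against WT 1.68 (adjusted p = 0.446). The call was lost under every setting but the sex covariate and the minimum of 20 reads, as was that of the Hipk4 antisense site under limma (adjusted p = 0.437), DESeq2 (0.247) and without WT replicate 1 (0.0841), so that no site passed under these.

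**Figure D4:**
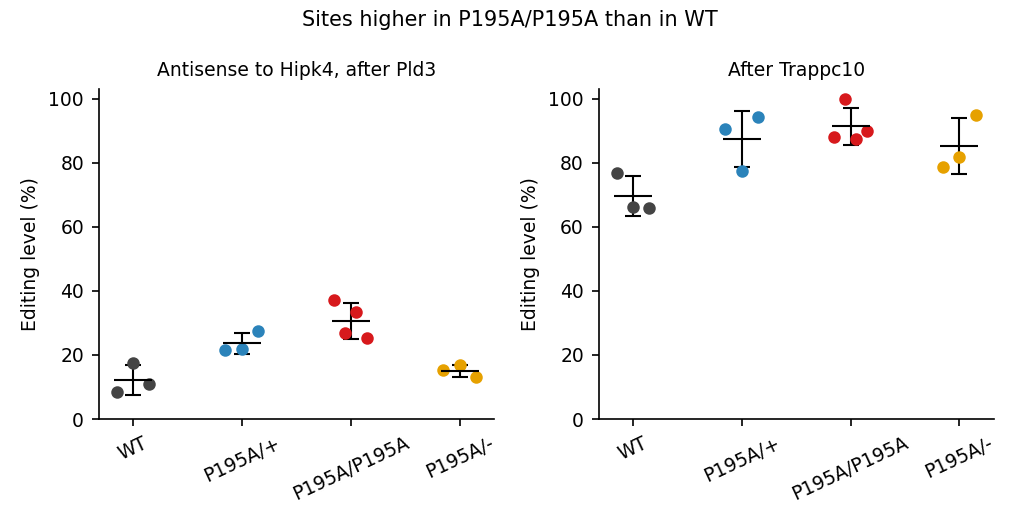
Editing level (%) in each library at the site antisense to Hipk4 (left) and at the site after Trappc10 (right), by genotype. Points are libraries, horizontal lines means and bars 1 SD (n = 3, 3, 4 and 3); at both sites all P195A/P195A libraries lie above all WT libraries.

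Other sites of the Trappc10 locus are given by their means. Of its 14 sites, 12 had a higher mean in P195A/P195A than in WT, and none of 14 had a higher mean in P195A/- than in P195A/P195A. Over all 9717 tested sites, 57.0% and 45.1% had a log2 odds ratio above 0 in these comparisons. The locus was chosen for its passing site, which is among the 14, and neighbouring sites share reads. The counts are therefore a description and no further support for that site. Over the cluster of 11 sites at chr10:78186075-78186183 the level of summed reads was 21.6%, 17.0% and 18.1% in WT, 26.6%, 20.6% and 26.6% with P195A/+, 23.7%, 35.2%, 33.7% and 29.2% with P195A/P195A and 18.6%, 20.5% and 26.0% with P195A/-. All P195A/P195A libraries lay above all WT libraries. The cluster's log2 odds ratio against WT was 0.92 (SE 0.227, adjusted p = 0.0650 over 3306 clusters by edgeR's quasi-likelihood test) and did not pass. It passed without P195A/P195A replicate 1 (1.07, adjusted p = 0.0474). The other 3 sites, at chr10:78186450-78186480, form a cluster whose WT and P195A/P195A libraries overlapped, at 35.1% ± 3.99 and 37.1% ± 9.93 (log2 odds ratio 0.10, adjusted p = 0.9502 by edgeR's quasi-likelihood test). Trappc10 mRNA was at 153, 145, 147 and 141 CPM from WT to P195A/- and did not pass. Of 191 clusters outside genes 1 passed in this comparison, the Hipk4 antisense site on its own (adjusted p = 0.0214), beside 2 of 3306 in all (0.0605%), and 16 had an unadjusted p under 0.05 (background 9.92%). That call was lost by limma and without WT replicate 1 or 3 or P195A/P195A replicate 1 or 3 (adjusted p from 0.0656 to 0.219).

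**Figure D5:**
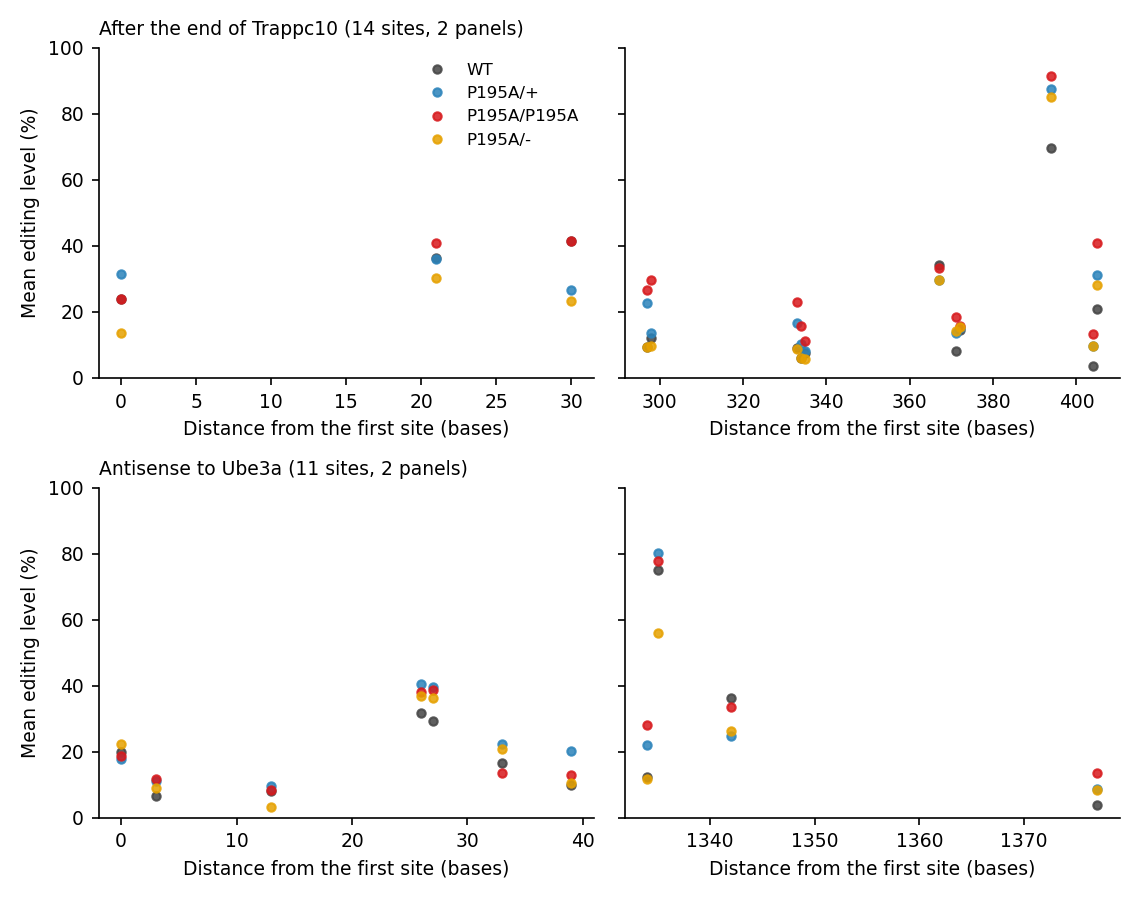
Mean editing level (%) in each genotype at the 14 sites after the end of Trappc10 (top) and the 11 sites antisense to Ube3a (bottom), against the distance in bases from the first site along the strand, each locus split at its widest empty stretch. Points are group means (n = 3, 3, 4 and 3); after Trappc10 no P195A/- mean lies above the P195A/P195A mean.

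Below the threshold, 44 of 578 sites had an unadjusted p under 0.05 in P195A/P195A against WT by edgeR (background 8.15%), 46 by limma (8.22%) and 29 by DESeq2 (4.66%). Libraries of the groups did not overlap at 39 sites higher in P195A/P195A (background 5.8%) and 20 lower (2.7%). The site with the third smallest p was lower: chr17:81002010, 194 bp after Tmem178, was at 25%, 26.1% and 18.2% in the WT libraries and 10.4%, 3.57%, 2.78% and 7.32% in P195A/P195A (log2 odds ratio -2.06, adjusted p = 0.164 by edgeR's quasi-likelihood test). The groups did not overlap there, and P195A/+ lay between them at 12.1%, 13.8% and 14.8%. Among sites without overlap the largest difference in mean was at chr18:23388806, 26329 bp before the GENCODE interval of Dtna but inside RefSeq Dtna. It was at 5.92% ± 6.28 in WT and 33.8% ± 15.4 in P195A/P195A. The next was at chr2:21216684 after Thnsl1, at 16.5% ± 5.22 and 38.2% ± 17.4. Neither passed. The median log2 odds ratio was 0.17 over the 578 sites and 0.15 over all 9717.

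P195A/+ against WT gave 0 passing sites of 578, by edgeR, limma and DESeq2 alike, beside 1 of 9717 (0.0103%). Unadjusted p under 0.05 was reached at 39 sites by edgeR (background 6.82%), at 28 by limma (6.88%) and at 18 by DESeq2 (3.65%). Groups did not overlap at 51 sites higher in P195A/+ (background 8.55%) and 16 lower (3.05%). The smallest p was at chr2:21215514, 505 bp after Thnsl1, with 5.71%, 9.09% and 5.66% in WT and 23.1%, 30.4% and 31.9% in P195A/+ (log2 odds ratio 2.42, SE 0.614, adjusted p = 0.266 by edgeR's quasi-likelihood test). P195A/P195A and P195A/- libraries at this site ran from 10% to 31.0% and from 3.57% to 26.3%. The cluster of 29 sites after Fbxl17 (chr17:63054094-63054395) was at 11.96%, 11.6% and 14.4% in WT and at 17.8%, 15.2% and 17.8% in P195A/+, without overlap (log2 odds ratio 0.50, SE 0.146, adjusted p = 0.299). In P195A/P195A and P195A/- it averaged 13.7% ± 1.47 and 12.2% ± 1.14. No cluster outside genes passed, and 12 of 191 had an unadjusted p under 0.05 (background 8.26%).

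Among sites whose P195A/+ and WT libraries did not overlap, the largest differences were at chr8:22855607 and chr5:37235070. The first, 33062 bp before Gm24735 and inside RefSeq Gm46036, was at 37.8% ± 9.66 in WT and 11.9% ± 2.86 in P195A/+. The second, after Gm1043, was at 40.7% ± 3.87 and 17.6% ± 15.7. P195A/P195A was at 31.8% ± 8.66 and 33.7% ± 4.25 at these sites. At chr7:126970877, 271 bp after the neuronal membrane protein gene Sez6l2, P195A/+ was higher, at 78.8% ± 5.09 against 55.8% ± 16.1. None of the 3 passed. The median log2 odds ratio was 0.18 over the 578 sites and 0.20 over all.

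P195A/- against WT gave 0 passing sites of 578 by edgeR, limma and DESeq2, and 0.0% of the 9717 passed. At unadjusted p under 0.05 there were 18 sites by edgeR (background 4.41%), 28 by limma (5.54%) and 13 by DESeq2 (2.31%). Groups did not overlap at 25 sites higher in P195A/- (background 5.47%) and 30 lower (3.95%). The lowest p of any cluster was at 4 sites opposite Pomgnt1, a glycosyltransferase gene of dystroglycan, and 70 to 211 bp after Lurap1 (chr4:116132195-116132336, minus strand). Their summed level was 15.8%, 17.9% and 17.5% in WT, 13.54%, 9.18% and 10.3% with P195A/+, 12.4%, 12.6%, 14.5% and 10.7% with P195A/P195A and 6.59%, 2.78% and 2.63% with P195A/-. P195A/- lay below all other libraries and WT above them. No cluster outside genes passed here, and 8 of 191 had an unadjusted p under 0.05 (background 4.96%). The log2 odds ratio was -2.21 (SE 0.532, adjusted p = 0.315 by edgeR's quasi-likelihood test) and did not pass.

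Within that cluster chr4:116132333 had the smallest p of any site outside genes in this comparison, at 19.8% ± 6.47 in WT and 2.90% ± 2.59 in P195A/- (log2 odds ratio -2.75, adjusted p = 0.993). Lurap1 mRNA was at 86.6 CPM in WT and 68.5 CPM in P195A/-, which did not pass. Opposite in direction was chr19:42194836, 246 bp after Zfyve27, a regulator of neurite outgrowth, at 4.85% ± 5.69 in WT and 27.1% ± 8.39 in P195A/-. Without overlap, P195A/- was also lower at chr7:127469637 opposite Prr14 (39.6% ± 4.82 against 70.9% ± 19.2) and higher at chr5:24161732 after Klhl7 (28.7% ± 16.0 against 8.66% ± 4.83). The median log2 odds ratio was -0.04 over the 578 sites and 0.05 over all.

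P195A/- against P195A/P195A gave 0 passing sites of 578 by edgeR, limma and DESeq2, beside 10 of 9717 (0.103%), all lower in P195A/-. Unadjusted p under 0.05 was reached at 56 sites by edgeR (background 7.56%), 60 by limma (7.61%) and 33 by DESeq2 (4.28%). Groups did not overlap at 43 sites lower in P195A/- (background 4.76%) and 19 higher (2.79%). The smallest p was again at the Hipk4 antisense site. Next were sites after Fbxl17: chr17:63052742 was at 74.3%, 79.7%, 80.0% and 81.2% in the P195A/P195A libraries and at 52.0%, 50% and 71.0% in those of P195A/- (log2 odds ratio -1.35, adjusted p = 0.212), and chr17:63052801 averaged 16.3% ± 8.80 and 4.12% ± 1.66. Their cluster of 8 sites averaged 40.3% ± 3.4 and 31.0% ± 4.19 and did not pass.

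The clusters with the smallest p in this comparison otherwise followed Aasdhppt (8 sites, 20.3% ± 1.80 in P195A/P195A and 12.1% ± 6.04 in P195A/-, log2 odds ratio -0.92, adjusted p = 0.209 by edgeR) and lay opposite Pomgnt1 (log2 odds ratio -1.67, adjusted p = 0.286). The Aasdhppt cluster passed without P195A/- replicate 2 (log2 odds ratio -1.38, adjusted p = 0.0274). None of 191 clusters outside genes passed with all libraries, 18 had an unadjusted p under 0.05 (background 8.23%), and 4 of 3306 clusters passed in all (0.121%). The largest differences without overlap were at chr16:75024881 inside RefSeq Robo2 (51.8% ± 10.5 and 24.4% ± 2.02) and at chr9:7214611 after Dcun1d5 (56.8% ± 13.4 and 30.2% ± 5.36). The median log2 odds ratio was -0.18 over the 578 sites and -0.09 over all.

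Genes that make or modulate editing were measured as a list of 26: the enzymes Adar, Adarb1 and Adarb2, the related Adad1 and Adad2, and proteins known to bind double-stranded RNA or to raise or lower editing, such as Dhx9, Fmr1, Zfr and Srsf9. Of the 26, 24 were tested. In P195A/P195A against WT 1 was higher, Adar, and 0 lower, beside 10 of 19962 genes in all (0.0501%). In P195A/- against P195A/P195A 0 were higher and 1 lower, again Adar (0.0401% of genes passed). In P195A/+ against WT (0.01%) and P195A/- against WT (0.0351%) 0 of 24 passed by edgeR, and 1 in each by DESeq2. At an unadjusted p under 0.05 there were 2 of 24 in P195A/+ against WT (4.48% of all genes), 4 in P195A/P195A against WT (5.89%), 1 in P195A/- against WT (10.6%) and 1 in P195A/- against P195A/P195A (6.82%). Adarb1, the gene of ADAR2, was between 303.8 and 316.0 CPM in all group means. No gene beside or opposite the named sites that had enough counts to be tested passed in any comparison.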

How the data were processed

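Whole-brain RNA of 13 mice was sequenced. The submitters' processing notes name fastp 0.19.5, JACUSA2 2.0.0-RC5, Salmon, edgeR and mm10. Per the file headers, JACUSA2 read counts of each base at known sites were deposited by the authors, counted by strand with a minimum coverage of 3 and a depth limit of 3000. The authors deposited a JACUSA2 score per site as well, which was not used. Salmon's estimated counts per gene were deposited by the authors too and rounded here. Members and gene lists were chosen with earlier results of these data known.

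Edited and unedited counts per library entered 1 edgeR 4.0.16 quasi-likelihood fit over all 13 libraries (R 4.3.3), with Benjamini-Hochberg adjustment over 9717 sites or 3306 clusters and a threshold of 0.05. Genes were tested likewise after TMM scaling and a filter on low counts. limma 3.58.1 on log2 odds (offset 0.5) and DESeq2 1.42.0 were alternatives. Sites named are those with the smallest p, the largest difference without overlap, the highest levels or the most reads, and the loci with most sites; genes beside them are named too. Some further sites and loci were chosen after their values were seen.

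Depth was 17174 to 25005 reads per library over the member sites. Wilson intervals cover counting error only. The site fit was tested on simulated data for P195A/P195A against WT, with 40 changed sites per effect and an assumed spread between animals. Changed sites were drawn from all tested sites, inside and outside genes, with pooled levels over 5% and not near the top of the scale. Changes at levels under 5%, the mean level of 15 of 98 antisense and 113 of 510 intergenic sites, were thus not covered. At true log2 odds ratios of 1, 2 and 3, 0%, 20% and 65% of the changed sites passed. At -1 and -2, 2.5% and 5% passed. Most changes of these sizes were thus missed, except at 3, and at size 2 falls were missed more often than rises. A site that did not pass may therefore still differ. Replicate numbers did not pair the libraries.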

Additional observations from a re-analysis of the deposited data

Results flagged for a closer look

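In 4 of the 48 P195A/P195A groups examined, 1 of the 4 libraries stood apart from the other 3. For values without ties, chance marks about 1 in 20 such groups. At chr7:27527160, antisense to Hipk4, 1 library was at 2.82% and the others at 12.5%, 12.7% and 12.7%. At chr5:37234699, after Gm1043, 1 library was at 97.6% and the others at 100%. At chr11:97845741, after B230217C12Rik, 1 library was at 3.90% and the others at 0%. At chr5:37234699 and chr11:97845741 the other libraries were tied at the limit of the scale. Any differing value would be marked there, so the rate for values without ties does not hold. The cluster chr2:104996843-104996928, opposite Ccdc73, was at 46.6% in 1 library and at 36.3%, 37.1% and 37.5% in the others.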

How the results depend on the processing

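Of the sites outside genes that passed in P195A/P195A against WT, 2 in all, 1 passed with the replicate block, 1 with no limit on the pooled level, 1 in a table of the 2 genotypes alone, 0 by limma, 0 by DESeq2 and 0 to 1 when each library was left out. Replicate numbers did not pair the libraries: correlations of same-numbered deviations ran from -0.034 to 0.026 for editing levels and from -0.115 to 0.326 for log2 CPM (5 of 18 over 0.1), and the block changed no other count of sites or clusters. The passing cluster of that comparison was lost by limma (0) and with libraries left out (0 to 1). In P195A/- against P195A/P195A 1 site passed at a minimum of 20 reads (the Hipk4 antisense site, log2 odds ratio -1.29, adjusted p = 0.0164), and 0 to 1 clusters with libraries left out. By DESeq2 1 editing gene passed in P195A/+ against WT and 1 in P195A/- against WT. The adjusted p of the Trappc10 site ran from 0.00954 to 0.983 over its alternatives. From WT to P195A/-, antisense means were 14.03%, 15.9%, 16.3% and 14.6% at 20 reads or more, 18.3%, 19.6%, 19.7% and 17.9% with 1 value per cluster, and 16.0%, 13.96%, 13.4% and 16.0% outside RefSeq genes too. With pooled levels of 1 to 99% they were 22.9%, 24.4% and 22.5% in WT, P195A/+ and P195A/-, and from pooled reads 20.8% in P195A/-. Intergenic means were 20.1%, 21.7% and 21.7% (WT, P195A/+, P195A/P195A) at 20 reads or more and 20.4%, 21.6% and 21.6% with pooled levels of 1 to 99%. From WT to P195A/- they were 16.6%, 18.1%, 17.9% and 16.6% with 1 value per cluster, 14.8%, 16.5%, 16.9% and 16.2% over 10 kb from a gene, and 17.5%, 18.7%, 18.03% and 17.3% outside RefSeq genes too, a subset added after seeing the data. Subsets of sites hold other sites, so their means need not match; other causes were not tested. A median of 24 to 36 reads per site limits single sites to large differences.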
